A study of Homo sapiens with 6 samples.

Results

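The MYC-MAX network and the related factor TFAP4 were followed in LS 174T. These mucus-making cells come from a human colorectal adenocarcinoma and serve as a goblet cell model. The 10 genes (MYC, MAX, MXD1, MXD3, MXD4, MXI1, MNT, MLX, MLXIPL and TFAP4) were taken by symbol from the 24462 symbols of the count tables, and each was found on a single line. Cells at passage 21 to 23 were left untreated (control, n = 3 libraries) or received propionate, a short-chain fatty acid of bacterial origin, at 4 mM for 4 h (n = 3 libraries). All 6 libraries came from the same line, and no label names separate cultures within a group, so p-values measure only how these libraries vary, and that variation may be technical. All 10 genes passed the filter on low counts and were among the 13605 genes tested.

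MYC is a transcription factor of the basic helix-loop-helix leucine zipper class that drives growth and proliferation and must pair with MAX to bind DNA at the E-box CACGTG. The MXD proteins, MXI1 and MNT also pair with MAX, bind the same sites and recruit the SIN3 corepressor with its histone deacetylases. MLX is a MAX-like partner of the glucose-responsive factors MLXIP (MondoA) and MLXIPL (ChREBP) and also binds some MXD proteins and MNT. TFAP4 (AP4) binds the related E-box CAGCTG as a homodimer, is a direct target of MYC, and represses the cell cycle inhibitor gene CDKN1A. In colon epithelium MYC is switched on by β-catenin signalling in the proliferating crypt base, while MXD1 and MXI1 are linked to the cells that leave the cycle.

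Several genes of the network carry the network's own E-box close to their start. RefSeq promoter windows (GRCh38.p14, 250 bases before to 50 after a start) were at hand for 8 of the 10 genes, not for MYC or TFAP4. CACGTG, which reads the same on both strands, lay in a window of 3 of the 8 genes, MLX, MNT and MXD4, and in 7.26% of all 35116 windows of this length. MAX and MXI1 had more than 1 window each, so shares of genes and shares of windows are not like measures. The windows of MLX, MNT and MXD4 had a GC content of 71.0%, 76.0% and 72.3%. Windows of the other members had between 55.0% and 75.3%. The share over all windows was not matched for GC content. CAGCTG, which also reads the same on both strands, lay in 1 of the 8, that of MXD3, where no CACGTG overlapped it, against 17.9% of all windows. The stretches below show the 3 promoters with CACGTG, and that of MLXIPL, the member with the largest rise, whose window holds neither motif. Each runs 5′ to 3′ on the strand of its gene, is limited to bases before the start that lie in no GENCODE exon, and has the motif in capitals.
MLX, chr17:42566850-42567067, + strand: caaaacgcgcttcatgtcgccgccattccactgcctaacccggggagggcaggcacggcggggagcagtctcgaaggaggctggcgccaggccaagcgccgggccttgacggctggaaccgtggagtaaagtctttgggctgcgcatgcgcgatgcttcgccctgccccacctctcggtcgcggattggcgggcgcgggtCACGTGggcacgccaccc
MNT, chr17:2401119-2401310, - strand: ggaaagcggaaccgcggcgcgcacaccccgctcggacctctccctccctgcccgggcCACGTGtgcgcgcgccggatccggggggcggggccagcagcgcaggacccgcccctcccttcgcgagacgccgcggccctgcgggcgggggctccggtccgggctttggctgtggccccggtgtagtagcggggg
MXD4, chr4:2262295-2262359, - strand: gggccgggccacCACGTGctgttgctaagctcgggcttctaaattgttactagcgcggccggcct
MLXIPL, chr7:73624544-73624772, - strand: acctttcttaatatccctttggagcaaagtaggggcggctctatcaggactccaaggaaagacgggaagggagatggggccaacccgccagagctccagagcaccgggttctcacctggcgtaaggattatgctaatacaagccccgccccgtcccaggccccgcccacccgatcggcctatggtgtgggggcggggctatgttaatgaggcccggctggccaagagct
The E-box began 50 bases before the start in MLX, 193 bases before it in MNT and 238 bases before it in MXD4. A match describes letters, not binding.

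With propionate 4 of the 10 genes were higher (MAX, MLXIPL, MXD1 and MXI1) and 1 was lower (TFAP4), by edgeR's quasi-likelihood test with Benjamini-Hochberg adjustment over all genes tested and an adjusted p under 0.05. Over all genes this rule called 17.2% higher, 17.0% lower and 34.2% in either direction. The 5 of 10 that passed are to be read against that last share, and 10 genes are too few to set the shares apart. With the replicate number as a block 5 of the 10 were higher, with MLX added, and 1 was lower, in a fit that called 21.9% of all genes higher and 22.6% lower. The same 5 genes were those with no overlap between the groups: the 4 had every propionate library above every control, found in 22.4% of all genes, and TFAP4 had every one below, found in 22.7% (45.2% for either). The median log2 fold change was 0.12 over the 10 genes and -0.01 over all genes. In bulk RNA, fewer cells of a type and less RNA per cell cannot be told apart.

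**Figure D1:**
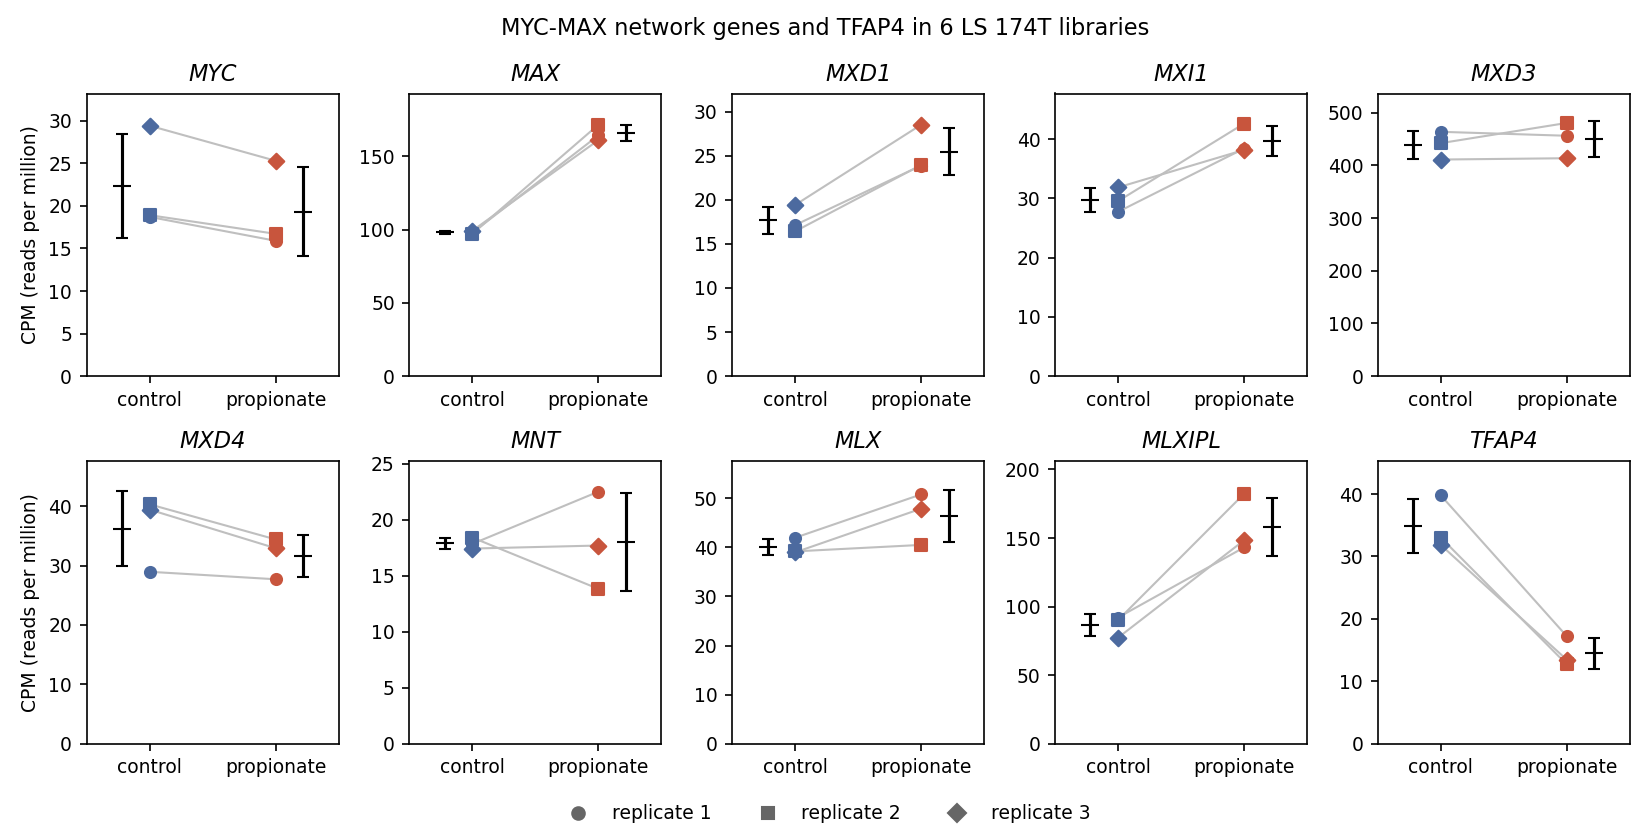
Level of each of the 10 genes in CPM (vertical axis from 0, own scale per panel) in the 3 control (blue) and 3 propionate (red) libraries; grey lines join libraries of the same replicate number, and the black marks give mean and SD (n = 3). MAX, MLXIPL, MXD1 and MXI1 lie higher in all 3 propionate libraries than in any control, TFAP4 lies lower, and MYC is highest in replicate 3 of both groups.

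MYC itself did not pass the test. Its level in CPM (reads per 1000000, scaled with TMM factors) was 18.7, 18.9 and 29.4 in control and 15.9, 16.7 and 25.3 with propionate. Replicate 3 stood above the other two in both groups, and the groups overlapped. The mean went from 22.3 ± 6.12 to 19.3 ± 5.21 CPM (SD, n = 3), a log2 fold change of -0.22 (SE 0.185, edgeR adjusted p = 0.4) with a 95% interval from -0.60 to 0.17. The spread of MYC between libraries of a group was 27.4% of the mean in control and 27.0% with propionate, where counting error alone would give 6.17% and 6.49%. Within same-numbered libraries the log2 ratios were -0.23, -0.18 and -0.22, but a fit that blocked on the replicate number did not call MYC either (adjusted p = 0.132). Without control replicate 3 the log2 fold change was 0.03, and without propionate replicate 3 it was -0.46 (adjusted p = 0.0666). With the block and the trend of transcript GC content removed MYC was called lower (log2 fold change -0.31, adjusted p = 0.0248), but not with the GC content of the last 500 bases in its place (-0.11, adjusted p = 0.446). MYC had adjusted p-values between 0.0248 and 0.92 over 18 alternatives.

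MAX, the partner that MYC needs and with which the MXD proteins and MNT also pair, rose. Its 97.9, 97.1 and 99.2 CPM in control became 164.2, 171.5 and 161.0 CPM with propionate. The 3 controls were nearly equal, and every propionate library lay far above them. The rise was 1.69-fold, from 98.1 ± 1.04 to 165.6 ± 5.41 CPM (log2 fold change 0.76, SE 0.0795, edgeR adjusted p = 8.06e-07), and 8.75% of all tested genes had a larger positive log2 fold change. In GENCODE 29 MAX is overlapped on the opposite strand by FNTB, a farnesyltransferase subunit gene, which was lower with overlapping libraries (37.2 ± 4.08 to 28.4 ± 3.90 CPM, adjusted p = 0.017). The readthrough gene CHURC1-FNTB, which also overlaps MAX on the opposite strand, was lower without overlap of the groups (4.46 ± 0.719 to 2.53 ± 0.312 CPM, adjusted p = 0.0266). The strand setting of the read counting is not given, so reads of the overlapping genes cannot be told apart.

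The number of MAX reads per MYC read, which needs no scaling between libraries, was 5.23, 5.14 and 3.37 in control and 10.3, 10.3 and 6.36 with propionate. The groups did not overlap in this ratio. MXD1 reads per MYC read were 0.916, 0.869 and 0.66 in control and 1.5, 1.43 and 1.13 with propionate, again without overlap. For MXI1 the ratio was 1.48, 1.56 and 1.08 in control and 2.41, 2.55 and 1.51 with propionate, so that propionate replicate 3 lay among the controls. These ratios were chosen after the values were seen and show an unequal change of the transcripts in each pair, not which of them moved. In each ratio replicate 3, the library with most MYC in its group, was the lowest of its group.

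Among the repressor partners of MAX, MXD1 and MXI1 rose and the other 3 did not pass. MXD1, known from cells that stop dividing and differentiate, was at 17.1, 16.4 and 19.4 CPM in control and at 23.9, 23.95 and 28.5 CPM with propionate. The lowest propionate library lay above the highest control, and replicate 3 was the highest of both groups. The rise was 1.44-fold, from 17.7 ± 1.56 to 25.5 ± 2.65 CPM (log2 fold change 0.53, SE 0.13, edgeR adjusted p = 0.00385). MXI1, which encodes a repressor that limits MYC-driven growth, was at 27.7, 29.5 and 31.8 CPM in control and at 38.4, 42.6 and 38.2 CPM with propionate, also without overlap. Its rise was 1.34-fold, from 29.7 ± 2.06 to 39.7 ± 2.50 CPM (log2 fold change 0.42, SE 0.107, adjusted p = 0.00475). A larger positive log2 fold change than that of MXD1 was found in 14.2% of all tested genes, and a larger one than that of MXI1 in 17.8%. MXD1 overlaps SNRNP27, a splicing factor gene, on the same strand in the reference, and SNRNP27 was at 70.8 ± 4.51 and 72.4 ± 4.33 CPM (adjusted p = 0.812).

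MXD4 and MNT gave no call. MXD4 was at 28.95, 40.3 and 39.4 CPM in control and at 27.7, 34.4 and 32.9 CPM with propionate. Replicate 1 was the lowest of both groups, and each propionate library was below its same-numbered control (log2 ratios -0.06, -0.23 and -0.26). The log2 fold change was -0.20 (SE 0.129, 95% interval -0.47 to 0.08, edgeR adjusted p = 0.264, and 0.104 with the replicate block). With a GC trend removed MXD4 was called lower, at -0.49 with the block and transcript GC content (adjusted p = 0.000154, range over 18 alternatives 5.08e-05 to 0.611), and its transcript has the highest GC content of the 10 genes (64.0%). MNT, a MAX partner found in both resting and dividing cells, was at 17.8, 18.4 and 17.4 CPM in control and at 22.5, 13.8 and 17.7 CPM with propionate. The controls were nearly equal, while the propionate libraries lay on both sides of them and had a spread of 24.1% of their mean, where counting error alone would give 6.69%. The log2 fold change of MNT was 0.01 (SE 0.158, 95% interval -0.32 to 0.34, adjusted p = 0.969), and its sign turned under 7 of 18 alternatives.

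The MXD3 reads need a caution. MXD3, a family member that is expressed in dividing cells, was at 463.5, 442.0 and 410.9 CPM in control and at 456.0, 480.3 and 413.4 CPM with propionate, with overlapping groups and a log2 fold change of 0.04 (SE 0.0819, edgeR adjusted p = 0.772). In GENCODE 29 the gene is overlapped on the opposite strand by PRELID1, a gene for a mitochondrial lipid transfer protein, and on the same strand by RAB24. PRELID1 had the same log2 fold change, 0.04 (SE 0.0829, adjusted p = 0.761). MXD3 reads per PRELID1 read were 0.523, 0.524 and 0.533 in control and 0.528, 0.519 and 0.53 with propionate, almost a constant over libraries whose MXD3 counts ran from 4885 to 5976. RAB24, a small GTPase gene, moved on its own and rose 1.67-fold (adjusted p = 0.000167). Reads of MXD3 and PRELID1 cannot be told apart here, and whether the MXD3 count holds reads of PRELID1 was not tested.

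**Figure D2:**
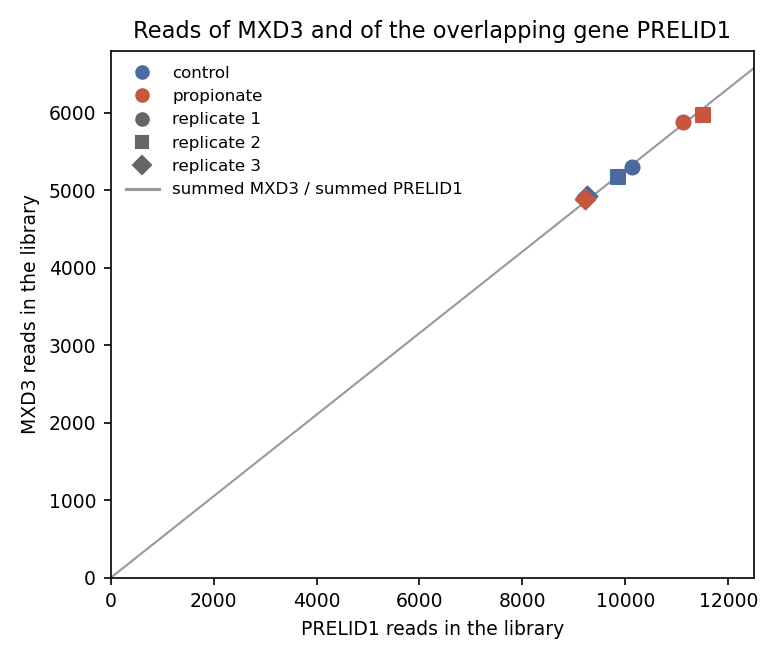
Reads counted for MXD3 (vertical axis) against reads counted for PRELID1 (horizontal axis) in each of the 3 control (blue) and 3 propionate (red) libraries, with a line through 0 at the ratio of the summed reads. All 6 libraries lie close to the line, with between 0.519 and 0.533 MXD3 reads per PRELID1 read.

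On the MLX arm of the network MLXIPL rose. MLXIPL encodes ChREBP, which turns on glycolytic and lipogenic genes when glucose is taken up. It was at 92.0, 90.1 and 77.3 CPM in control and at 143.1, 182.2 and 148.3 CPM with propionate. Every propionate library lay well above the controls, and propionate replicate 2 was the highest. The rise was 1.83-fold, from 86.5 ± 8.02 to 157.9 ± 21.2 CPM (log2 fold change 0.87, SE 0.101, edgeR adjusted p = 2.44e-06), and 7.07% of all tested genes had a larger positive log2 fold change. Removing the trend of transcript GC content with the block brought the log2 fold change to 0.57 (adjusted p = 2.09e-07, range over 18 alternatives 1.72e-18 to 7.88e-05), the largest shift among the 5 called members. No other counted gene overlaps MLXIPL in the reference.

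MLX, the obligate partner of MLXIPL, was at 42.0, 39.2 and 39.0 CPM in control and at 50.8, 40.5 and 47.9 CPM with propionate. Propionate replicate 2 lay among the controls and the other two lay above them. The log2 fold change was 0.21 (SE 0.106, 95% interval -0.01 to 0.43, edgeR adjusted p = 0.131). With the replicate block MLX was just called higher (log2 fold change 0.21, adjusted p = 0.0493), and so it was without propionate replicate 2 (0.30, adjusted p = 0.046), but not with the block and a GC trend removed (adjusted p = 0.156 and 0.341, range over 18 alternatives 0.046 to 0.408). PSMC3IP, a recombination gene that overlaps MLX on the opposite strand, had a similar value (0.18, SE 0.12, adjusted p = 0.256). MLXIP, which encodes MondoA, the other glucose-responsive partner of MLX, averaged 302.6 ± 13.95 CPM in control and 310.8 ± 10.8 CPM with propionate, with an adjusted p of 0.74 (log2 fold change 0.04, SE 0.0774). The rise on this arm was thus seen in MLXIPL and not called in MLX or MLXIP, and the difference between MLXIPL and MLXIP was not tested.

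TFAP4 had the largest change of the 10 genes and was the sole one called lower in the reported fit. It was at 39.8, 33.0 and 31.8 CPM in control and at 17.2, 12.7 and 13.45 CPM with propionate. In reads this was 455, 386 and 382 against 222, 158 and 159, and the highest propionate library lay well below the lowest control. The fall was 2.41-fold, from 34.9 ± 4.29 to 14.5 ± 2.42 CPM (log2 fold change -1.27, SE 0.139, edgeR adjusted p = 1.26e-06), and 122 of the 13605 tested genes, 0.897%, had a more negative log2 fold change. Same-numbered libraries gave log2 ratios of -1.21, -1.38 and -1.24, so the size of the fall was much alike in the 3 pairs. No other counted gene overlaps TFAP4 in the reference, and over its 18 alternatives the log2 fold change ran from -1.44 to -1.17 with an adjusted p of at most 1.43e-05. TFAP4 reads per MYC read were 2.13, 1.75 and 1.08 in control and 1.08, 0.76 and 0.532 with propionate, where control replicate 3, the library with the most MYC, met the highest propionate value.

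**Figure D3:**
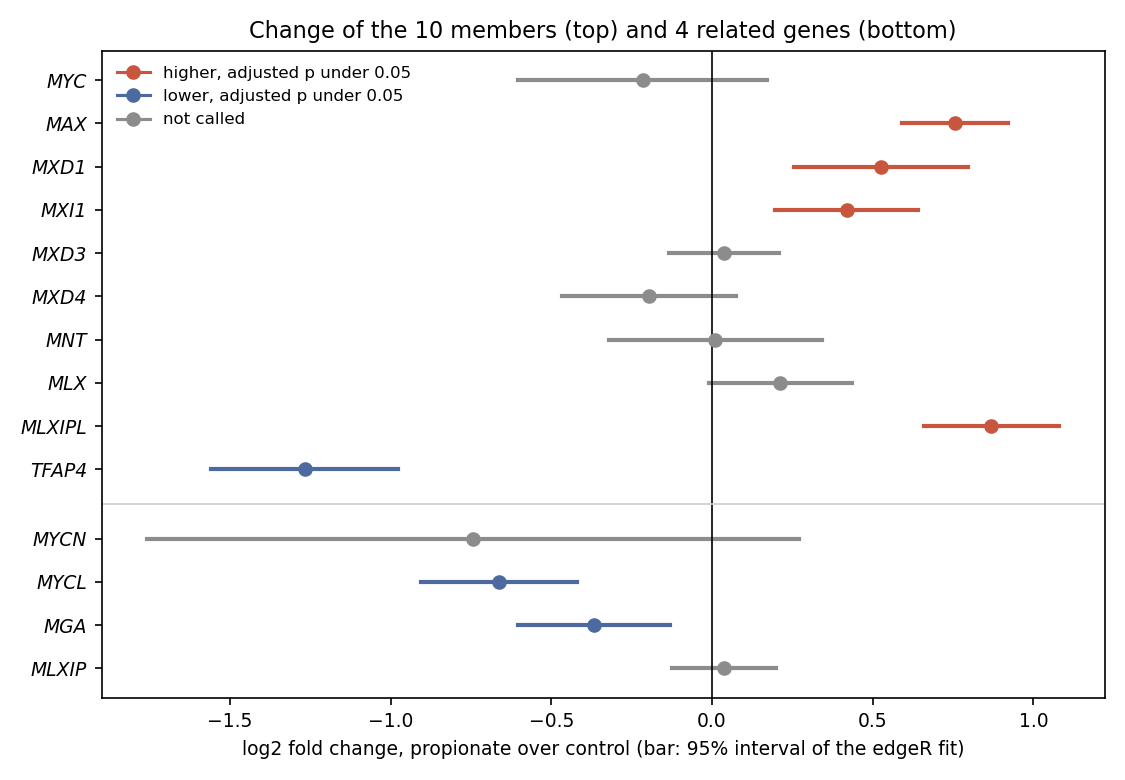
Log2 fold change of propionate over control (horizontal axis, 0 means no change) for the 10 genes (top) and 4 related genes (bottom), with points for the edgeR estimate and bars for its 95% interval (red higher, blue lower, grey not called). TFAP4 at -1.27 stands farthest from 0, MLXIPL at 0.87 and MAX at 0.76 lead the rises, and the interval of MYC spans 0.

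Of the 4 network genes outside the 10, MYCL and MGA fell and MYCN and MLXIP were not called. MYCL, a MYC paralog, was at 46.2, 51.3 and 61.2 CPM in control and at 31.0, 32.2 and 37.1 CPM with propionate, without overlap. The fall was 1.58-fold (log2 fold change -0.66, SE 0.116, edgeR adjusted p = 2e-04). MGA, a MAX partner of the polycomb type complex PRC1.6, was 1.29-fold lower, from 45.3 ± 1.16 to 35.2 ± 5.33 CPM (adjusted p = 0.0164). MYCN was rare, with between 7 and 23 reads in each library, and its log2 fold change of -0.74 had a 95% interval from -1.76 to 0.27.

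Genes for proteins that act with the network on chromatin were followed as MYC cofactors and as SIN3 corepressor genes. Of 15 tested MYC cofactors 1 was higher (6.67%, against 17.2% of all genes) and 4 were lower (26.7%, against 17.0%), with a median log2 fold change of -0.15. With the block and the GC trend removed 1 was higher and 9 were lower, in a fit that called 18.8% of all genes higher and 25.5% lower. BPTF, a subunit of the NURF remodeler, fell 2.01-fold, from 221.2 ± 12.7 to 110.2 ± 7.72 CPM, KAT5, the TIP60 acetyltransferase, fell 1.97-fold, and HCFC1, a host cell factor that binds MYC, fell 1.56-fold (edgeR adjusted p of at most 9.45e-06 in all 3). KDM5B, a histone demethylase, rose 1.89-fold (adjusted p = 7.18e-06). The genes listed for the SIN3 corepressor, through which MXD proteins and MNT act, include some that encode no SIN3 subunit. Of 14 tested, 1 was higher (7.14%, against 17.2% of all genes) and none was lower (against 17.0%). The higher one was ARID4A (1.28-fold, edgeR adjusted p = 0.00389). ING1 (log2 fold change -0.32), RBBP7 (-0.22) and ARID4B (0.22) were not called (edgeR adjusted p = 0.0522, 0.0572 and 0.0521). With other scaling factors 2 genes of this list were higher and none lower. Those fits called 2381 to 2532 of the 13605 genes higher and 2083 to 2263 lower. The replicate block gave 2 higher and 2 lower (21.9% and 22.6% of all genes in that fit). With the GC trend also removed the counts were the same (18.8% and 25.5% of all genes).

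Among 20 genes that act on MYC protein stability 4 rose (20%) and 5 fell (25%), shares near those of all genes, 17.2% and 17.0% (median log2 fold change 0.01, and -0.05 with the replicate block and the GC trend removed). AURKA, a mitotic kinase that can shield MYC family proteins from degradation, fell 2.44-fold, from 210.8 ± 18.6 to 86.4 ± 1.20 CPM (edgeR adjusted p = 3.62e-09). USP22, a deubiquitinase, fell 1.61-fold, and GSK3B, a kinase that marks MYC for degradation, fell 1.48-fold (adjusted p = 1.37e-06 and 0.00033). STUB1 and USP37, a ubiquitin ligase and a deubiquitinase, rose 1.32-fold and 1.20-fold. Of 17 tested genes that act on MYC transcription or its mRNA 3 rose (17.6%, near the 17.2% of all genes) and 7 fell (41.2%, against 17.0%), with a median of -0.20. NFKB1 fell 2.13-fold, CTCF, an insulator protein gene, fell 1.46-fold and CNBP, which binds the MYC promoter, fell 1.43-fold, while SMAD3 (1.55-fold), STAT3 (1.51-fold) and IGF2BP2 (1.19-fold) rose. CTNNB1, which encodes β-catenin, had a log2 fold change of 0.05 and its partner gene TCF7L2 one of 0.22, and neither was called.

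Genes that MYC is known to raise were mostly lower where they serve ribosome production or the cell cycle. Of 37 tested genes of the nucleolus and ribosome biogenesis 21 (56.8%) were lower and 2 (5.41%) higher, against 17.0% and 17.2% of all genes, with a median log2 fold change of -0.29 against -0.01. UBTF, a factor of ribosomal RNA transcription, fell 1.73-fold, from 99.0 ± 1.63 to 57.1 ± 8.13 CPM (edgeR adjusted p = 6.5e-06), RCL1 fell 1.63-fold and MPHOSPH10 1.40-fold. BOP1 and MYBBP1A, the members that rose, were both 1.23-fold higher with overlapping libraries (adjusted p = 0.0487 and 0.0281). With the replicate block and the GC trend removed none of the list was higher and 25 were lower, in a fit that called 18.8% of all genes higher and 25.5% lower. The block alone gave 4 higher and 23 lower, where 21.9% and 22.6% of all genes were called. Of 19 cell cycle genes 13 (68.4%) were lower and 1, CCNE1, was higher (median -0.35). PLK4, the kinase of centriole duplication, fell 2.24-fold, PLK1 1.94-fold and CCNA2, the cyclin of S phase and G2, 1.79-fold. Of 31 genes of metabolism and transport 2 were higher (6.45%) and 4 lower (12.9%), with a median of -0.07, and with the replicate block 12 were lower, in a fit that called 22.6% of all genes lower. CTPS1, an enzyme of cytidine nucleotide synthesis, fell 1.74-fold, PPRC1 1.67-fold and PAICS 1.22-fold, while PKM rose 1.17-fold and SLC16A1 1.18-fold.

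Among 17 tested genes that MYC is known to lower, 8 (47.1%) were higher, against 17.2% of all genes, and 1 was lower (median 0.34). GADD45B, a stress response gene, rose 4.73-fold, from 6.95 ± 0.250 to 32.9 ± 6.52 CPM, the cell cycle inhibitor gene CDKN1C rose 4.03-fold, from 8.22 ± 0.690 to 33.2 ± 2.05 CPM, and CEBPA, a differentiation factor gene, rose 2.86-fold (edgeR adjusted p of at most 7.87e-09 in all 3). CDKN1B, which encodes p27, fell 1.38-fold (adjusted p = 0.00185). Of 13 tested targets and partners of TFAP4 6 were higher (46.2%, against 17.2% of all genes) and 1 lower (7.69%, against 17.0%), with a median of 0.27. This list mixes genes that TFAP4 represses, genes that it is reported to raise and partners. Its counts and median therefore have no set direction. CDKN1A, which TFAP4 represses, was at 104.3, 160.7 and 134.7 CPM in control and at 191.5, 233.4 and 238.7 CPM with propionate, 1.66-fold higher (adjusted p = 0.000111). HDAC3 and CLDN7 rose 1.36-fold and 1.23-fold, and LGR5, a stem cell receptor gene that TFAP4 is reported to raise, fell 1.85-fold (adjusted p = 0.00325). SNAI1, which TFAP4 is also reported to raise, was higher from a very low level (0.453 ± 0.185 to 1.25 ± 0.242 CPM, adjusted p = 0.0337). With the replicate block 8 of the TFAP4 list were higher and 2 lower (21.9% and 22.6% of all genes in that fit).

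Targets of the MLX partners gave calls in both directions. Of 13 tested, 4 were higher (30.8%, against 17.2% of all genes) and 2 lower (15.4%, against 17.0%), with a median of 0.21. PKLR, the liver type pyruvate kinase gene and a classic ChREBP target, rose 2.19-fold, from 7.27 ± 1.02 to 15.95 ± 2.50 CPM (edgeR adjusted p = 5.36e-05). SCD, a fatty acid desaturase gene, rose 1.32-fold. TXNIP, a well-known MondoA target, was 1.35-fold higher (adjusted p = 0.0219) with overlapping libraries, while ARRDC3, its relative, fell 1.55-fold and HBP1 1.34-fold. Among 13 tested E proteins, ID proteins and related helix-loop-helix genes 3 were higher (23.1%) and 4 lower (30.8%), with a median of -0.19. ID3 fell 2.12-fold, from 224.0 ± 30.2 to 105.8 ± 15.55 CPM, TFEB rose from a low level (2.39 ± 0.403 to 7.20 ± 1.365 CPM), and HES1 rose 1.54-fold.

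**Figure D4:**
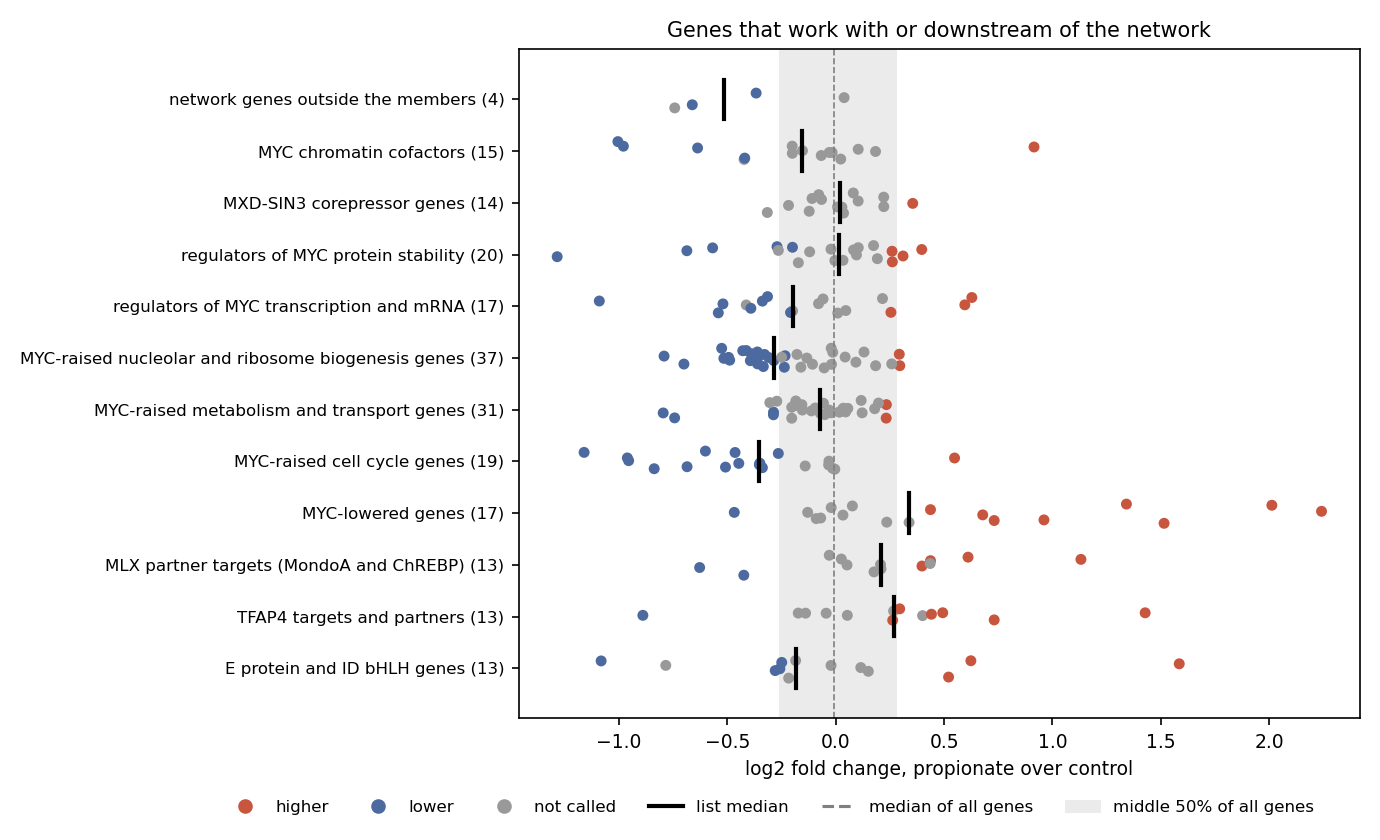
Log2 fold change of propionate over control (horizontal axis) of each tested gene in 12 lists of genes that work with or downstream of the network (number tested in brackets), coloured by call, with the median of each list in black and the middle 50% of all tested genes in grey. The medians of the nucleolar list (-0.29) and of the cell cycle list (-0.35) lie to the left of the median of all genes (-0.01), and that of the genes lowered by MYC (0.34) lies to the right.

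The genes SNAI1, CTNNB1, TCF7L2, ING1, RBBP7 and ARID4B were named outside the rule for naming genes, after their values were seen. The lists were written from general knowledge, but they and the members were chosen with earlier results of these data known. Their shares beside those of all genes are therefore no blind comparison. Some genes stand in several lists (CDKN1A, TXNIP, SKP2 and E2F1), and no test of a list as a whole was made. The counts are a description, and nothing in them is shown to be particular to MYC. Of the 60 list and pattern genes named by rule, 12 overlap another counted gene that has at least 10% as many reads. Reads of KAT5 and RNASEH2C, of PLK1 and ERN2, of CCNA2 and EXOSC9, of LGR5 and TSPAN8, of STUB1 and JMJD8, of HBP1 and COG5, of MYBBP1A and SPNS2, of BOP1 and SCX, of CLDN7 and ELP5, of USP37 and VIL1, of MYCN and MYCNOS and of INTS8 and CCNE2 cannot be told apart with certainty, since the strand setting is not given.

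The genes most like MYC and TFAP4 over the 6 libraries were found by the smallest distance between log2 CPM deviations from the control mean, among 9276 other genes with at least 10 CPM. For TFAP4 these were JADE2 (Pearson r = 0.992 over 6 libraries), E2F8 (0.987) and ZNF33A (0.977). JADE2, a subunit gene of a histone acetyltransferase complex, was at 50.5, 45.6 and 43.5 CPM in control and at 20.9, 16.6 and 19.4 CPM with propionate, and E2F8, a repressor of the E2F family, had a log2 fold change of -1.26. For MYC they were FAAH2 (0.975), IDS (0.967) and INTS8 (0.969), none of which was called (edgeR adjusted p = 0.254, 0.627 and 0.607). FAAH2 was at 13.2, 13.95 and 21.9 CPM in control and at 11.7, 12.2 and 16.3 CPM with propionate, so its replicate 3 also stood above the other two in both groups. The genes were picked for this likeness, so high correlations and a like replicate 3 follow from the choice. The correlations also share the treatment and the library numbers and are given as descriptions.

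The 6 libraries held between 11603288 and 12746170 reads, at which 3 reads correspond to between 0.233 and 0.262 CPM. The 10 genes had between 158 and 5976 reads in a library. All 12 colon epithelial and goblet markers listed were detected, with summed levels of 4270 to 5160 CPM in control and 5080 to 5780 CPM with propionate (not TMM-scaled). KRT18 had the highest count of this list, with 19264 to 26404 reads in control and 25647 to 34682 with propionate. CDX2 had 2111 to 2724 reads in control and 1804 to 2189 with propionate, and KRT20 had at most 22 reads in a library. Of markers of other cell types, CD3E, DCN, CDH5, VWF and KDR had no read in any library. The leukocyte list summed to 32.2 to 36.5 CPM in control and 25.4 to 30.0 CPM with propionate, nearly all of it from CD68, LYZ and CD14, with LYZ at 164 to 279 reads in control and 119 to 146 with propionate. The fibroblast list summed to 1.59 to 3.96 and 4.64 to 5.64 CPM, with COL1A1 at 8 to 13 and 37 to 55 reads, and the endothelial list to at most 0.172 CPM. The part of these sums in the results was not tested.

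**Figure D5:**
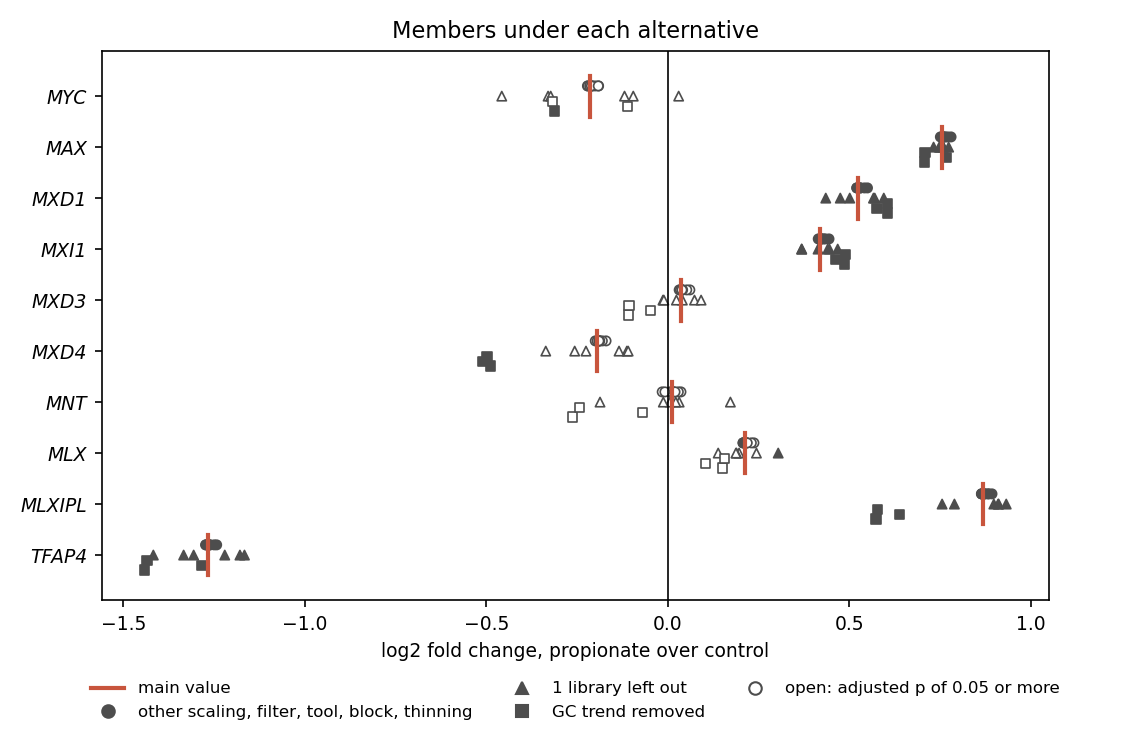
Log2 fold change of each of the 10 genes (horizontal axis) in the fit reported above (red bar) and under 18 alternatives, with circles for another scaling, filter, tool, the replicate block or thinning, triangles for 1 library left out and squares for a GC trend removed; filled marks have an adjusted p under 0.05. All marks of MAX, MXD1, MXI1, MLXIPL and TFAP4 are filled and on one side of 0, while those of MYC, MXD3 and MNT lie on both sides.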

How the data were processed

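Total RNA (500 ng per library) was sequenced from LS 174T cells, 3 untreated libraries and 3 given propionate. The authors deposited 1 table per library with whole-number read counts per gene symbol, not normalised. Bowtie2, edgeR and the builds hg19 and GRCh37 are named in the submitters' processing notes; the sources used here do not give the read counter, its annotation or its strand setting. The tables held 25737 lines, and lines that share a symbol (286 symbols) were summed.

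Groups came from the sample labels. Genes were kept by filterByExpr, scaled by TMM and tested in R 4.3.3 with edgeR 4.0.16 (quasi-likelihood F test, prior count 0.125), with Benjamini-Hochberg adjustment over 13605 genes and a threshold of 0.05. CPM values are TMM-scaled, and SD is over libraries. limma 3.58.1 (voom) and DESeq2 1.42.0 gave alternatives, and the code was tested on simulated counts. Other settings were another scaling or filter, thinning, stricter thresholds, each library left out, the replicate number as a block, and removal of a GC trend (93.5% of tested genes had a GC value). Overlaps of genes came from the coordinates of GENCODE 29 (GRCh38), not of hg19, so the submitters' gene models may overlap differently. Promoters came from RefSeq tables.

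Libraries of the same number deviated together from their group means over 9286 genes above 10 CPM (correlations 0.237, 0.391 and 0.438), which met the rule for calling them paired, from the data and on no label's word. The reported fit has no block, and the paired fit is an alternative. The members and the gene lists were chosen with earlier results of these data known. All members were described. From each list the rule for naming took up to 3 called genes per direction with the smallest p and above 5 CPM in the higher group, all 4 network genes outside the members, and for MYC and TFAP4 the 3 genes of nearest pattern. One gene that the rule names is not reported here.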

Additional observations from a re-analysis of the deposited data

How the results depend on the processing

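MAX, MXD1, MXI1, MLXIPL and TFAP4 kept their direction and their call under all 18 alternatives run for each member, with log2 fold changes from 0.71 to 0.78 for MAX, 0.44 to 0.60 for MXD1, 0.37 to 0.49 for MXI1, 0.57 to 0.93 for MLXIPL and -1.44 to -1.17 for TFAP4. At a fold change of at least 1.5 the members higher were 2 instead of 4, and all genes were 1345 higher and 968 lower. At an adjusted p under 0.01, 1424 genes were lower, and with the replicate block and the GC trend of the last 500 bases removed, 3636 were. Leaving out each library in turn gave 4 to 5 members higher, 1 lower in each case, 1984 to 2080 genes higher and 1864 to 1999 lower. The cause of the shifts below was not tested.

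With the replicate block MLX was called (log2 fold change 0.21, adjusted p = 0.0493) and MNT was at -0.0078; the block changed no other call of a member. With the block and the transcript GC trend removed 3 members were lower, with MYC at -0.31 and MXD4 at -0.49 added. That fit called 25.5% of all genes lower, and the median log2 fold change of all genes in it was -0.0421. In the same fit MXD3 was at -0.11, MNT at -0.26 and the median of the regulators of MYC stability at -0.0483 instead of 0.01. Fits chosen after seeing the data gave 2 members lower. With the block and the GC trend of the last 500 bases removed, MXD4 was at -0.51, MXD3 at -0.0478 and MNT at -0.0694. With the transcript GC trend removed without the block these genes were at -0.50, -0.11 and -0.24. Of the 13605 genes tested, the first of these fits called 3636 lower and the second called 2651 lower. limma-voom put MNT at -0.0153. Leaving out 1 library gave ranges of -0.46 to 0.0301 for MYC, -0.0132 to 0.0919 for MXD3, -0.19 to 0.17 for MNT and 0.14 to 0.30 for MLX, where the values past 0 for MYC came without control replicate 3, those below 0 for MXD3 without control replicate 3 (-0.0132) or propionate replicate 2 (-0.0107), those below 0 for MNT without control replicate 3 (-0.0122) or propionate replicate 1 (-0.19), and MLX was called without propionate replicate 2. With 3 libraries a group, changes as small as those of MLX and MXD4 could not be settled, and the list counts were recomputed under 5 of the alternatives and not with a library left out.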
